A study of Mus musculus with 4 samples.

Results

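The genes described here belong to the interferon system and to the sensing of viral RNA, in cells labelled hepatocyte-like that were grown from mouse embryonic stem cells. The 9 members were chosen by gene symbol: Ifih1, Mavs, Irf3, Irf7, Stat2, Isg15, Bst2, Ifitm1 and Ifitm3. All 9 were found among the 78028 gene rows that each library table held. The cells came from the male mouse line E14TG2a, and 4 cultures were taken separately through A-HIC differentiation (advanced hepatic-inducing cocktail). Each culture gave 1 library of polyadenylated RNA, sequenced from both ends with no strand information, and the libraries are called 1 to 4 after the labels' replicate numbers. All 4 cultures belong to 1 group, so no untreated cells, starting stem cells or interferon-treated cells stand beside them. A level therefore shows how much of a transcript was present and not whether a response was switched on or off.

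Libraries 1 to 4 held 37.8, 40.2, 29.5 and 40.1 M counts. Of 10 hepatocyte markers, 2 (Ttr and Hnf4a) reached 1 TPM, a unit scaled for gene length and library size, in all 4 libraries, their summed level was 10.1 to 55.4 TPM, and Fabp1 and Cyp2e1 had 0 counts. All 8 pluripotency markers reached it, with sums of 4138 to 7565 TPM, as did all 8 parietal endoderm markers (2724 to 8862 TPM) and all 8 fibroblast markers (1369 to 3523 TPM). These values go against the label, and in bulk RNA fewer cells of a type and less RNA per cell cannot be told apart. All 5 endothelial markers reached it as well, with sums of 76.3 to 88.5 TPM. Of 8 leukocyte and macrophage markers 5 reached 1 TPM, with sums of 76.5 to 101 TPM. Most of each sum was Cd68, a lysosomal protein abundant in macrophages, at 57.8 to 85.1 TPM. The others that reached it, Csf1r, Cd14, Lyz2 and Tyrobp, ranged over libraries from 1.89 to 9.06 TPM. Ptprc, which marks all leukocytes, stayed below 1 TPM, and Adgre1 and Itgam did not reach it in all 4 libraries. Of 6 markers of plasmacytoid dendritic cells, the main interferon producers of the blood, Bst2 and Tcf4 reached 1 TPM, while Siglech had 0 counts.

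Long double-stranded RNA in the cytosol is bound by Ifih1 (MDA5), and RNA with a free triphosphate end by Rigi (RIG-I). Both signal through Mavs on the mitochondrial surface to kinases that activate Irf3 and Irf7, which switch on the genes of type I interferons. Secreted interferon binds the receptor made of Ifnar1 and Ifnar2, and the kinases Jak1 and Tyk2 then activate transcription factors that include Stat2, which acts with Irf9 at the interferon-stimulated response element (ISRE) in the promoters of target genes. Pluripotent mouse cells are known to make little interferon when they meet viral RNA and to respond weakly to added interferon.

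The ISRE is the letter pattern through which Stat2 reaches its targets, so the stretches of the members' promoters that hold it are shown before the levels. The element was searched as GAAA, any 2 bases and GAAA again, on both strands, from 250 bases before to 50 bases after the start of each gene, in RefSeq promoters of build GRCm38.p6. That build differs from the submitters' build, and its coordinates are given with these sequences only. All 9 members had a promoter in the table, and 5 of 9 held a match, against 3.44% of all 32851 promoters there. The matches of Isg15 overlap each other, as do those of Bst2. Capitals mark the bases covered by a match.
Bst2: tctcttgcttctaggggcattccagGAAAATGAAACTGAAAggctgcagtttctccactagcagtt
Ifitm3: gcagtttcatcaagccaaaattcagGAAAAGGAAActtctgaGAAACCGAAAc
Isg15: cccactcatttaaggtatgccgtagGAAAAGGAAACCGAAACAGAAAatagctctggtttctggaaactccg
Ifih1: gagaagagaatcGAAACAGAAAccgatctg
Stat2: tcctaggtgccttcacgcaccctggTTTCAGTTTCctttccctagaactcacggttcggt
The Bst2 stretch is chr8:71537562-71537627, minus strand, with 2 matches of which the first begins 130 bases before the start. The Ifitm3 stretch is chr7:141010715-141010767, minus strand, with 2 matches from base 3 of the transcript on. The Isg15 stretch is chr4:156200850-156200921, minus strand, with 3 matches that begin 78 bases before the start. The Ifih1 stretch is chr2:62646206-62646235, minus strand, with 1 match that lies wholly inside the transcript. The Stat2 stretch is chr10:128270251-128270310, plus strand, where the match is on the opposite strand and begins 222 bases before the start.

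The promoters of Mavs, Irf3, Irf7 and Ifitm1 held no match in this window, which says only that these letters are not there. The bases before the start of Ifitm1 (chr7:140967826-140968075, plus strand) are shown, as it was the most abundant of these members.
Ifitm1: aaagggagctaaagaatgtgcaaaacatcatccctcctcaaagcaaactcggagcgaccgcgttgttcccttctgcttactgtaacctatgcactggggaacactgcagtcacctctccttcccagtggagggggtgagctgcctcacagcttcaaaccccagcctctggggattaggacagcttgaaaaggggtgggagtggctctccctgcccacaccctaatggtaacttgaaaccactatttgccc
Isg15 and Ifitm3 both hold the same 10 letters GAAACCGAAA, and their mean levels were 3.08 and 533 TPM. Of the 45 interferon-induced genes listed as effectors, 30 had a promoter in the table. Of these 30 genes 15 held a match, against 3.99% of all 27025 genes there. The 15 with a match had a median level of 3.43 TPM and the 15 without one a median of 4.07 TPM. The pattern search was chosen after the levels had been seen and no factor binding was measured, so these values only describe.

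All 9 members were expressed, meaning 1 TPM or more in all 4 libraries, against 63.4% of 19937 protein-coding genes. Isg15 was the nearest to that limit, at 1.18 TPM in library 3. Their levels fell into 3 tiers. The membrane proteins Ifitm3, Bst2 and Ifitm1 ranged over libraries from 94.2 to 633 TPM, Mavs, Stat2 and Irf3 from 23.1 to 48.3 TPM, and Isg15, Ifih1 and Irf7 from 1.18 to 5.85 TPM. The 3 tiers did not overlap, but they were cut from these same sorted levels. Within tiers, the ranges of Ifitm3 and Bst2, of Bst2 and Ifitm1, and of Stat2 and Irf3 did not overlap either.

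**Figure D1:**
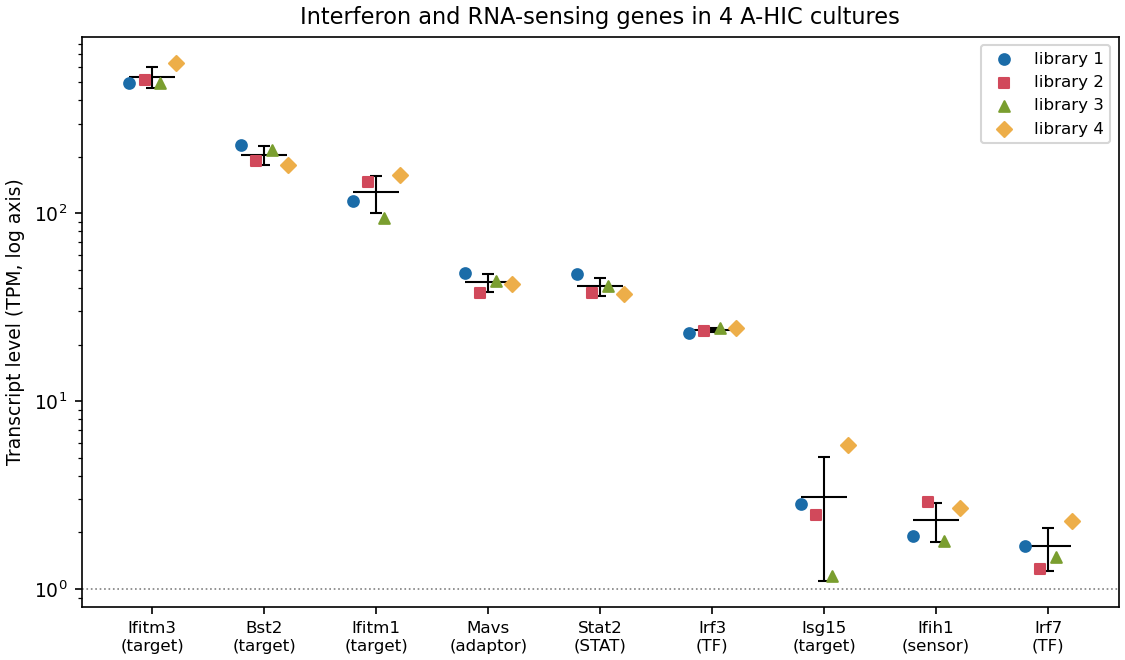
Transcript level of each of the 9 members on a log axis in TPM, with 1 point per library, a bar at the mean and whiskers of 1 SD (n = 4). The dotted line marks 1 TPM, and the 3 members at the right lie between 1.18 and 5.85 TPM in all libraries.

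The sensing arm was described first. Ifih1, the sensor of long double-stranded RNA, stood at 1.91, 2.90, 1.81 and 2.69 TPM in libraries 1 to 4, from 161, 240, 116 and 229 counts. It was higher in libraries 2 and 4 than in libraries 1 and 3. Its mean was 2.33 ± 0.549 TPM (SD, n = 4), rank 12090 of 19937 protein-coding genes.

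Mavs, the adaptor that passes the signal on from the sensors, stood at 48.3, 37.4, 43.5 and 41.9 TPM, with the highest value in library 1 and the lowest in library 2. Its mean was 42.8 ± 4.48 TPM. Ifih1 was lower than Mavs by a mean log2 ratio of -4.17 ± 0.46 and was lower in 4 of 4 libraries. Rigi, the other main sensor, stood at 20.0, 23.4, 23.0 and 27.9 TPM, and Ifih1 was lower than it by a log2 ratio of -3.30 ± 0.26, again in 4 of 4 libraries. Ifih1 had the least transcript of these 3 genes in every library.

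Of 15 genes for sensing cytosolic RNA and its adaptor, 13 (86.7%) were expressed, against 63.4% of all protein-coding genes. Their median was 30.7 TPM against 7.55 TPM over all protein-coding genes. Ddx3x, an RNA helicase with many general roles, was the highest at 1052 ± 190 TPM, and Zbp1, a sensor of Z-form nucleic acid that interferon induces, was the lowest at 0.479 ± 0.279 TPM. Trim25, a ubiquitin ligase that also acts in ISG15 conjugation, stood at 167 ± 3.06 TPM. Eif2ak2 (PKR), the kinase that halts translation when it meets double-stranded RNA, stood at 65.4 ± 5.42 TPM (chosen after its values were seen). All 12 kinases and signalling adaptors were expressed, from Ikbke at 3.97 ± 0.759 TPM to Chuk at 97.5 ± 1.33 TPM.

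In endosomal and DNA sensing 8 of 14 genes (57.1%) were expressed, near the 63.4% of all protein-coding genes. Samhd1, which breaks down deoxynucleotides, was the highest at 24.0 ± 1.78 TPM. Trex1, a DNA exonuclease, had 0 counts in every library, but all 1147 bases of its exons lie within exons of Atrip on the same strand in the annotation, so its level could not be read.

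The transcription factors came next. Irf3, which is made constantly and activated by phosphorylation, stood at 23.1, 23.6, 24.4 and 24.6 TPM. The 4 values are almost level, and the spread of 2.93% of the mean was below the 3.54% that counting error alone gives for such counts. That error is 5.01% if both ends of each read pair were counted. Irf7, the partner that interferon itself induces and that amplifies the response, stood at 1.69, 1.28, 1.48 and 2.29 TPM, from 66, 49, 44 and 90 counts. It was highest in library 4. Its spread was 25.9% of the mean, and counting error alone gives 12.7%, or 17.9% if both ends of each read pair were counted. Irf7 was lower than Irf3 by a mean log2 ratio of -3.78 ± 0.32, in 4 of 4 libraries.

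Of the 9 interferon regulatory factors, 7 (77.8%) were expressed, against 63.4% of all protein-coding genes, with Irf3 the highest. Irf8, a factor of blood cells, was the lowest at 1.00 ± 0.155 TPM. Irf9, the DNA-binding partner of Stat2, stood at 14.8 ± 2.05 TPM. Irf3 shares 88 exonic bases with Bcl2l12 and Irf7 shares 45 with Phrf1, in both cases on the opposite strand. These are 2.56% and 1.19% of their exons, and the reads there cannot be assigned without strand. Bcl2l12 had 194 to 343 counts per library and Phrf1 4018 to 5496, against the 44 to 90 of Irf7. Whether reads of Phrf1 entered the Irf7 count was not tested.

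Transcripts of the ligands were scarce. Of 21 interferon genes, 19 had 0 counts in every library, among them Ifnb1, the first interferon made after infection, and Ifng. Among all 19937 protein-coding genes, 2448 had 0 counts in every library. A count of 0 allows up to 0.0747 to 0.102 CPM (scaled for library size alone) depending on the library, or 0.149 to 0.203 CPM if both ends were counted, which covers counting error only. Ifnk, an interferon of skin keratinocytes, was the one expressed ligand, at 3.01, 2.20, 1.26 and 1.55 TPM, from 25, 18, 8 and 13 counts. Ifnz had 1 count in library 1.

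Of 13 receptor and JAK-STAT genes, 12 (92.3%) were expressed, against 63.4% of all protein-coding genes, with a median of 31.9 TPM. The receptor chains Ifnar1 and Ifnar2 stood at 57.4 ± 5.91 and 8.37 ± 1.56 TPM, and the kinases Jak1 and Tyk2 at 83.2 ± 6.67 and 28.0 ± 3.28 TPM. Il10rb, a chain shared by the receptors of lambda interferons and interleukin 10, was the one not expressed, at 0.146 TPM. Whether exons of another gene overlap it was not checked, as that was done for the members and Trex1 only. Stat2, a transducer of type I and type III interferon signals, stood at 47.2, 37.7, 41.0 and 37.3 TPM, with library 1 the highest.

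**Figure D2:**
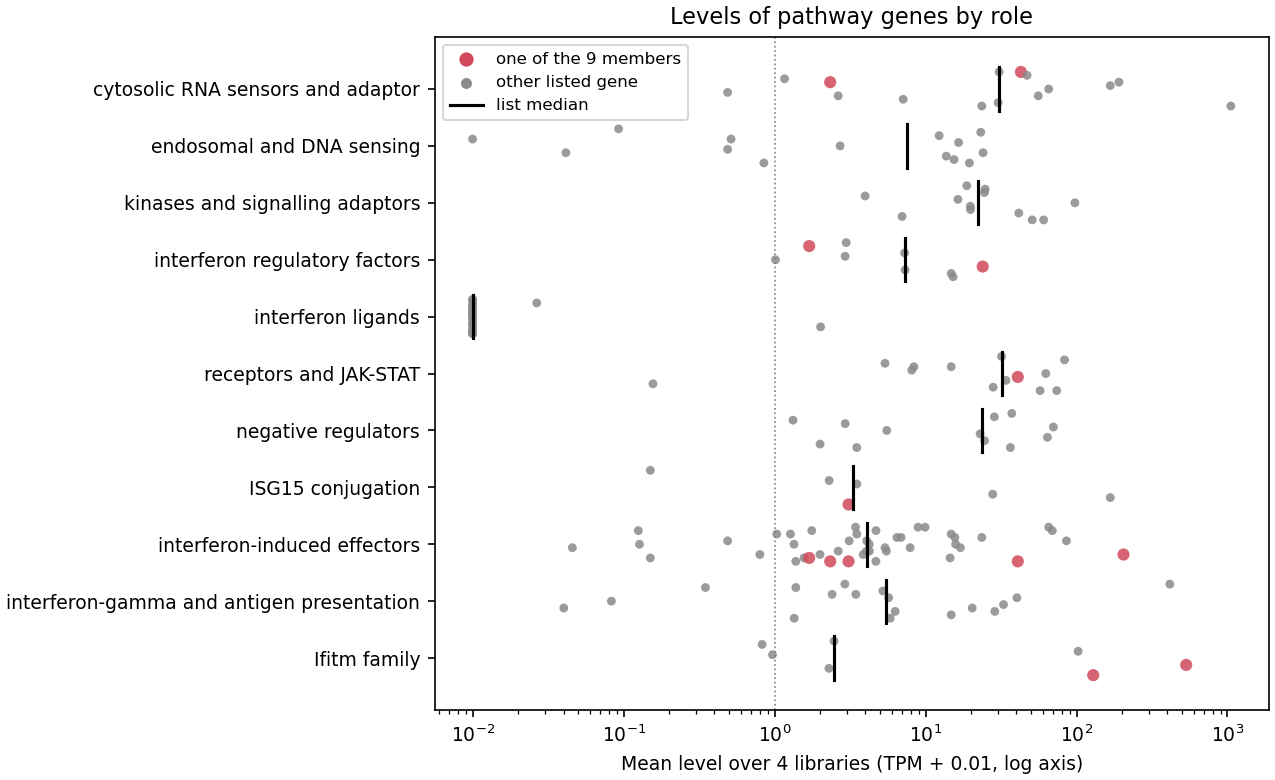
Mean level over 4 libraries (TPM + 0.01, log axis) of every gene in 11 lists of the pathway, with the 9 members in red, other genes in grey and a black bar at each list's median. The interferon ligands lie at the left edge, with 19 of 21 at 0 counts, while 12 of 13 receptor and JAK-STAT genes lie right of the dotted line at 1 TPM.

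The targets covered the whole range of the members. Ifitm3, a membrane protein that blocks the entry of enveloped viruses, stood at 493, 509, 495 and 633 TPM in libraries 1 to 4. The first 3 libraries were close together and library 4 stood apart. Its mean of 533 ± 67.3 TPM put it at rank 223 of 19937 protein-coding genes. Bst2 (tetherin), which holds budding viruses on the cell surface, stood at 231, 189, 218 and 181 TPM, with libraries 1 and 3 above libraries 2 and 4. Its mean was 205 ± 23.8 TPM, rank 815. The protein-coding genes nearest to Bst2 in level over the 4 libraries were U2af1, Nop10 and Mtf2, at root mean square differences of 0.0386, 0.0643 and 0.0718 on the log2 scale. This likeness is one of level over 4 libraries only.

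Ifitm1, a relative of Ifitm3 at the cell surface, stood at 117, 146, 94.2 and 159 TPM, higher in libraries 2 and 4 than in libraries 1 and 3. Its mean was 129 ± 29.2 TPM, rank 1502. Ifitm3 was higher than Ifitm1 by a mean log2 ratio of 2.07 ± 0.25, in 4 of 4 libraries. Ifitm2, their neighbour in the same gene cluster, stood at 123, 96.7, 107 and 83.0 TPM. No window of 100 bases in a transcript of any member occurred in a transcript of another annotated gene, whereas 34.9% of the windows of Ifitm2 did. Of the 7 Ifitm genes, 5 (71.4%) were expressed, against 63.4% of all protein-coding genes, and Ifitm10 was the lowest at 0.817 ± 0.341 TPM.

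Isg15, the ubiquitin-like protein that interferon induces strongly, stood at 2.82, 2.48, 1.18 and 5.85 TPM, from 22, 19, 7 and 46 counts. Library 4 was the highest and library 3 the lowest. Its spread was 64.1% of the mean of 3.08 ± 1.98 TPM, against 20.6% from counting, or 29.2% if both ends were counted. Bst2 was higher than Isg15 by a mean log2 ratio of 6.21 ± 1.02, in 4 of 4 libraries. Within the 6 genes of ISG15 conjugation, Trim25 was the highest and Herc6, the main ligase for ISG15 in the mouse, the lowest at 0.140 TPM. Usp18, the protease that removes ISG15 and damps the receptor, stood at 3.23, 2.51, 2.73 and 5.51 TPM, with library 4 the highest (chosen after its values were seen).

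Among the 45 effectors that interferon is known to induce, 36 were expressed, a share of 80.0%, against 63.4% of all protein-coding genes. Their median level of 4.07 TPM was below the 7.55 TPM of all protein-coding genes, and 11 of 45 stood at 10 TPM or more in every library. Bst2 was the highest, and Ifi44l was the lowest at 0.0358 TPM, with 2 counts in library 2 and none elsewhere. In the list of interferon-gamma and antigen presentation genes 12 of 18 (66.7%) were expressed, near the share of all protein-coding genes. They ran from B2m, the light chain of class I molecules, at 415 ± 57.6 TPM down, and the lowest gene of the list was Gbp5 at 0.0302 TPM. All 12 negative regulators were expressed, with the phosphatase gene Ptpn2 the highest at 70.2 ± 3.05 TPM and Nlrc3 the lowest at 1.31 ± 0.162 TPM.

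In the order of mean level the members ran Ifitm3, Bst2, Ifitm1, Mavs, Stat2, Irf3, Isg15, Ifih1 and Irf7. Of the 14 ratios computed between neighbours in this order and between pairs with related roles, 12 had the same direction in all 4 libraries. In an exact two-sided sign-flip permutation test each of the 12 gave p = 0.125, the smallest that 4 libraries allow, and an adjusted p of 0.146 over the 14. Neighbours were picked by sorting these same levels, so the direction of their mean ratio was set by the sorting. Their tests therefore do not support the order. Mavs and Stat2 did not differ beyond their spread (log2 ratio 0.07 ± 0.08, exact permutation p = 0.25), nor did Isg15 and Ifih1 (0.21 ± 0.75, exact permutation p = 0.75). The level of Ifih1 was above that of Irf7 in 4 of 4 libraries by 0.44 ± 0.45, with ranges over libraries that overlapped.

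The order within tiers depended on the gene length used. Levels were scaled with the union of all annotated exons. That union is 8165 bases for Ifih1, 3442 for Irf3 and 3776 for Irf7, while their coding transcripts average 4543, 1724 and 1972 bases. With the mean length of coding transcripts, Irf3, Mavs and Stat2 stood at 29.2, 29.5 and 33.6 TPM, and Stat2 was above Mavs in all 4 libraries. Bst2 was then above Ifitm1 in 2 of 4 libraries, and with the union of exons in 4 of 4. The 3 tiers held, with Ifitm3 at 326 TPM and Isg15 at 1.88 TPM, but Isg15 was below 1 TPM in library 3, at 0.719 TPM. Ifitm3 then ranked 453 and Bst2 1346 among protein-coding genes, against 223 and 815 with the union of exons.

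Estimated spread between the cultures was then compared for the members. For each, the gene-wise biological coefficient of variation from edgeR was set beside the value estimated for genes of the same abundance. The gene-wise estimate is drawn toward that value, so it is not the member's own spread. Irf3 spread by 2.93% of its mean TPM and Ifitm3 by 12.6%, yet their estimates were 0.133 and 0.130. Ifitm3 had 0.130 beside 0.137, Stat2 0.131 beside 0.143, Bst2 0.137 beside 0.150 and Mavs 0.138 beside 0.159. Irf3 had 0.133 beside 0.178, and the low-count genes Ifih1 and Irf7 had 0.251 beside 0.270 and 0.279 beside 0.318. Ifitm1, at 0.194 beside 0.159, was the one member tested that lay above the value for its abundance. Isg15 did not pass the filter on low counts, so 8 of the 9 members were tested.

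In a quasi-likelihood test with edgeR over 17398 genes, a single library was set against the remaining 3 and assumed to vary as they do. Col4a1, a parietal endoderm marker, stood at 629, 2509, 855 and 2022 TPM in libraries 1 to 4. For such genes the remaining 3 always mixed high and low libraries, so a lack of calls does not show equal levels. At an adjusted p of 0.05 the share called was 0% for each of the 4 libraries, and 0 of 8 members and 0 of 39 effectors that could be tested were called. Without adjustment, 926, 1284, 274 and 269 genes had p under 0.05 in libraries 1 to 4, among them 3, 1, 4 and 4 of the effectors and 2 member values, Ifitm1 in library 3 and Ifitm3 in library 4. DESeq2 called 8, 68, 3 and 3 genes, which are 0.046%, 0.391%, 0.0172% and 0.0172%, and none was a member or an effector. In library 4 Ifitm3 had 633 TPM against 499 ± 8.55 TPM in the other 3, a log2 fold change of 0.34 that did not pass (edgeR, adjusted p = 1.00). In library 3 Ifitm1 had 94.2 TPM against 141 ± 21.7 TPM in the other 3, a log2 fold change of -0.60 (edgeR, adjusted p = 1.00). Irf7 in library 4 differed by 0.62 and Stat2 in library 1 by 0.31 on the log2 scale (edgeR, adjusted p = 1.00 and 0.723).

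**Figure D3:**
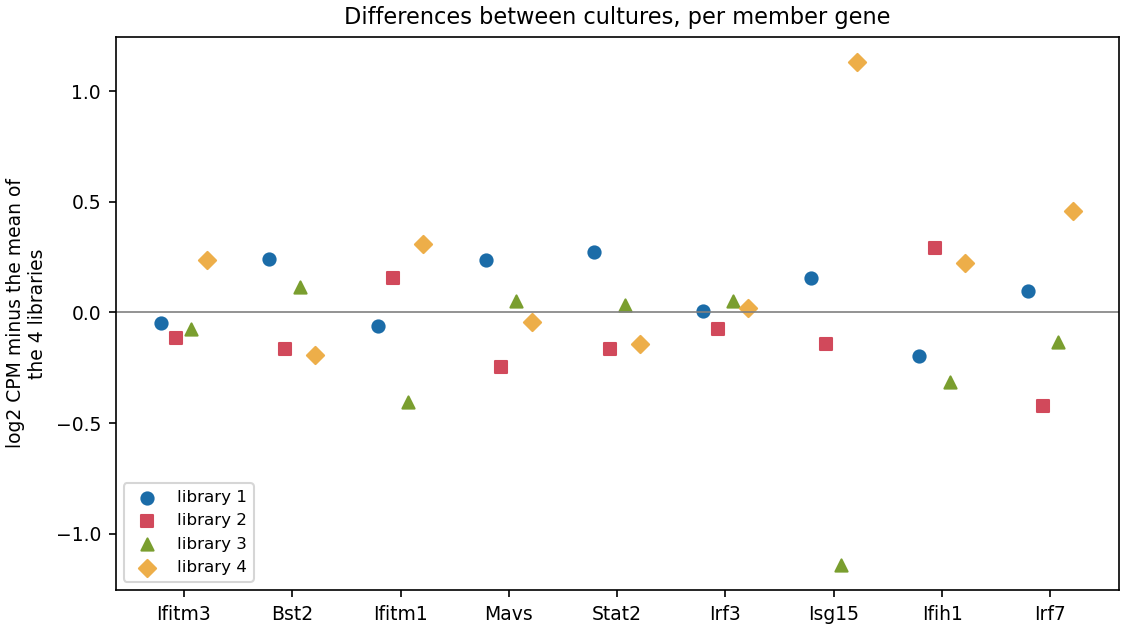
Difference of each library from the mean of the 4 libraries for each member, in log2 CPM, with 1 point per library. Irf3 has its 4 points nearly together, Isg15 has libraries 4 and 3 farthest apart, and Ifitm1 and Ifih1 have libraries 2 and 4 above libraries 1 and 3.

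Left-out libraries changed the call for 1 member. Without library 1, Ifitm1 was lower in library 3 than in libraries 2 and 4, by a log2 fold change of -0.71 (edgeR, adjusted p = 0.00460). Without library 2, Ifitm1 was higher in library 4 than in libraries 1 and 3, by 0.59 (edgeR, adjusted p = 0.0176). In these fits of 1 library against 2, 1303 of 17723 genes (7.35%) and 1386 of 17780 genes (7.8%) were called. The summed parietal endoderm markers ran the same way, at 2724, 8862, 3297 and 6780 TPM in libraries 1 to 4. So did the summed fibroblast markers at 1591, 3523, 1369 and 2457 TPM. The hepatocyte sums of 10.1, 55.4, 12.6 and 27.5 TPM and the endothelial sums of 76.3, 83.0, 81.1 and 88.5 TPM were also higher in libraries 2 and 4. The leukocyte and macrophage sums, at 101, 94.0, 92.6 and 76.5 TPM, and the plasmacytoid dendritic sums, at 242, 203, 229 and 194 TPM with Bst2 included, were not. Cd68 made up most of the former, at 85.1, 68.2, 76.9 and 57.8 TPM. Bst2, itself a member, made up most of the latter, at 231, 189, 218 and 181 TPM. The orders of these sums are therefore mainly those of Cd68 and Bst2. Other markers of these lists were mixed, with Tcf4 and Lyz2 higher in libraries 2 and 4 and Irf8 and Csf1r not. The summed pluripotency markers were at 7565, 4138, 6860 and 5070 TPM, higher in libraries 1 and 3 like Bst2. The part of these markers in the values of Ifitm1, Ifih1 and Bst2 was not tested.

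The 39 effectors tested were counted by the library that held their highest and lowest CPM, with no test of the counts. This count was chosen after Isg15, Ifit1 and Usp18 had been seen to be high in library 4, so it is a description and supports nothing. The highest value lay in library 4 for 13 (33.3%), against 18.7% of all genes tested, and in library 3 for 3 (7.69%), against 24.9%. For library 1 the number was 12, with 34.1% of all genes, and for library 2 it was 11, with 22.3%. The lowest value lay in library 3 for 16 of 39 (41.0%), against 17.2% of all genes tested. It lay in libraries 1, 2 and 4 for 4, 11 and 8 effectors, where all genes had 23.9%, 38.3% and 20.5%. The list's median log2 fold change against the other libraries was 0.10 in library 4 and -0.24 in library 3, where the median of all genes tested was -0.01 in both. The value of library 4 became 0.17 without library 1, 0.25 without library 2 and 0.03 without library 3, while that of library 3 stayed between -0.27 and -0.24. The 13 highest in library 4 included Ifit1, Usp18, Ifi27, Lgals3bp, Rigi, Irf7 and Irf9. Ifit1, an RNA-binding effector chosen after its values were seen, stood at 3.06, 3.82, 1.34 and 7.96 TPM, highest in library 4 and lowest in library 3 as Isg15 was. Ifi27 stood at 61.5, 65.3, 51.2 and 98.4 TPM and Lgals3bp at 76.6, 83.1, 56.8 and 126 TPM (both chosen after their values were seen). None of these differences passed the test over all genes with all 4 libraries. With 1 of the other libraries left out, effectors were called in 4 fits. For library 3 without library 1 the number was 4 of 39 (10.3%), against 7.35% of all genes, and for library 4 without library 2 it was 4 of 39 (10.3%), against 7.8%. For library 1 without library 3 it was 2 of 41 (4.88%), against 12.4%, and for library 2 without library 4 it was 3 of 39 (7.69%), against 14.4%.

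**Figure D4:**
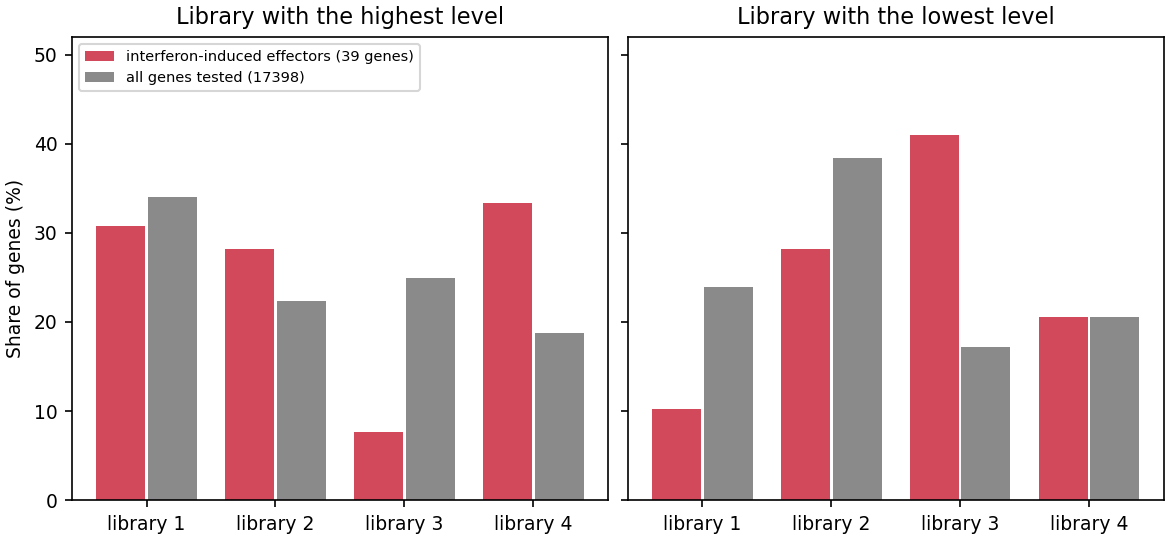
Share of genes (%) whose highest CPM (left) and lowest CPM (right) fell in each library, for the 39 interferon-induced effectors tested in red and for all 17398 genes tested in grey. Library 4 holds the highest value of 33.3% of the effectors against 18.7% of all genes, and library 3 the lowest value of 41.0% against 17.2%.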

How the data were processed

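The members and pathway lists were chosen with earlier results of these data known. The authors deposited unnormalized counts, 1 table of genes per library. Per the submitters' processing notes, STAR, featureCounts and GRCm39 (mm39) were used. Their versions and options were not given in the sources used here. Even numbers made up 60.0% to 62.6% of counts between 1 and 8, so a read pair may have been counted as 2.

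Lengths came from GENCODE M21 (GRCm38), which matched 48811 rows holding 98.7% to 98.8% of the counts. TPM used the union of exons, and log2 ratios log2(TPM + 0.1). The replicates are cultures of 1 line. Single libraries were set against the remaining 3 with edgeR 4.0.16 (TMM, filterByExpr, quasi-likelihood test, Benjamini-Hochberg at 0.05), with DESeq2 1.42.0 as an alternative. On simulated data the edgeR test called large changes and missed most small ones. The simulated libraries held no split between cultures such as the marker sums show. That check therefore does not tell which changes would be called in these data. Gene ratios used exact sign-flip tests. Named were all members, the highest and lowest gene of each list, role partners, the core receptor and signalling genes, the 3 genes nearest to Bst2 and genes overlapping a member. The promoter pattern search, the search for windows shared between transcripts and the count of effectors by highest and lowest library were added after values had been seen. The values of 1 named gene, and its ratio among the 14, are not reported here. Python 3.11.15 and R 4.3.3 were used. Alternatives were other thresholds, pseudocounts, filters, scalings, halved counts and left-out libraries.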

Additional observations from a re-analysis of the deposited data

Results flagged for a closer look

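Of 38 named genes checked for a library far from the other 3, 2 were flagged. Chance flags about 1 group in 20, and 2 of 38 is near that rate. Ifitm3 stood at 633 TPM in library 4, while the other 3 libraries lay between 493 and 509 TPM. Ifi44l stood at 0.143 TPM in library 2, from 2 counts, with 0 counts in the other 3 libraries. A gene with counts in 1 library only is always flagged by this rule, so that flag carries no weight.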

How the results depend on the processing

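All 9 members stayed expressed at 0.5 TPM and with any library left out. At 5 TPM 6 of 9 did, without Isg15, Ifih1 and Irf7, and at 1 CPM and with coding transcript lengths 8 of 9, without Isg15. Ranks of Ifitm3, Bst2 and Ifitm1 were 453, 1346 and 1707 with coding transcript lengths and 2723, 4940 and 5869 with CPM. At 5 TPM the number expressed also became 4 of 9 interferon regulatory factors, 0 ligands, 7 negative regulators, 2 ISG15 conjugation genes, 16 effectors, 7 antigen presentation genes and 3 Ifitm genes. At 1 CPM and with coding transcript lengths, 0 ligands were expressed. With CPM the log2 ratios of Ifitm1 over Mavs, Mavs over Stat2 and Isg15 over Ifih1 reversed, to -0.043, -0.76 and -2.97, since CPM does not account for length. In CPM, Ifitm1 at 27.5 to 45.1 overlapped Mavs at 31.6 to 44.1, so the tiers did not hold on that scale. With coding transcript lengths, an alternative chosen after seeing the data, Mavs over Stat2 became -0.19 and Isg15 over Ifih1 -0.59. Without library 4, Isg15 over Ifih1 became -0.086, and its range over left-out libraries was -0.086 to 0.47.

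Unfiltered counts gave edgeR 328, 469, 1 and 6 calls in libraries 1 to 4, where DESeq2 made 8, 68, 3 and 3. With 1 other library left out, the calls ranged from 0 to 2206, 0 to 2552, 0 to 1303 and 0 to 1386. In those fits the spread comes from the 2 libraries on the other side, so these numbers alone do not show whether 1 library differs. Calls were made only where the other side was libraries 2 and 4, or libraries 1 and 3. The cause was not tested. No paired analysis was possible because all libraries belong to 1 group. Isg15, at 7 to 46 counts, is limited by depth.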
